A study of Mus musculus with 9 samples.

Results

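Paneth cells sit at the base of small intestinal crypts, between the stem cells, and release granules of antimicrobial proteins into the crypt lumen. Their granules hold alpha-defensins, small cysteine-rich peptides that damage bacterial membranes, together with lysozyme, an enzyme that cuts the bacterial cell wall. In the mouse the alpha-defensins are made as inactive precursors that the protease matrilysin cuts into active peptides. Of the 31685 genes measured, 10 genes of this programme are described here, 4 outside the defensin family and 6 alpha-defensins. The first 4 were *Lyz1*, the lysozyme of Paneth cells, *Mmp7*, matrilysin itself, *Ang4*, an antimicrobial ribonuclease of the angiogenin family, and *Itln1*, a lectin that binds microbial sugars and is made by Paneth and goblet cells. The alpha-defensins were *Defa17*, *Defa21*, *Defa22*, *Defa24*, *Defa26* and *Defa30*. The 10 genes were taken by name, and they had been chosen by their levels in these same mice. Their values in the 3 groups are therefore a description, and the intervals and threshold counts given for them are no test.

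Jejunal RNA was sequenced from 9 wild-type male C57BL/6J mice aged 6 to 8 weeks, 3 in each of 3 groups, on day 3. Control mice had no treatment. The TAI group received 12 Gy of total abdominal X-ray irradiation with phosphate-buffered saline, and the TAI/IVIg group received the same irradiation followed by 500 mg/kg of intravenous immunoglobulin (IVIg), a pooled human IgG preparation. There was no group given IVIg without irradiation, and every library carried the same batch label. Levels are FPKM, fragments per kilobase of exon scaled to the library total. This scaling does not adjust for a shift shared by many genes of a library, so results with equal library medians are given as well.

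The library totals behind the FPKM values ran from 16284531 to 18244739 reads. The 10 genes together took 0.0128% of a library in mouse TAI/IVIg 3 and 0.443% in mouse TAI 2. All 10 passed the filter for testing (3 or more mice with an FPKM of 1 or more), as did 13056 genes in all. The label of the tissue was checked against markers. The epithelial gene *Epcam* stood between 869.7 and 1748 FPKM, while the summed level of the pancreatic acinar genes stayed at or below 0.667 FPKM in every mouse. *Fabp6*, the ileal bile acid binding protein, was at 7326 to 8177 FPKM in the control mice and at 208 to 3529 FPKM in the irradiated mice of both groups, and *Slc10a2*, the ileal bile acid transporter, at 64.9 to 138 FPKM against 11.0 to 75.5 FPKM. *Fgf15*, another ileal gene, did not share this difference after TAI. It was at 16.4 to 30.3 FPKM in controls, at 16.2 to 34.7 FPKM after TAI and at 5.85 to 25.3 FPKM after TAI/IVIg. The position along the small intestine from which each sample was taken cannot be told apart from the group with these values.

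The 6 alpha-defensins lie within 709.9 kb of chromosome 8 in the GRCm38 build, all on the plus strand and each with 2 exons. *Defa21* is at chr8:21025545-21026516, *Defa30* at chr8:21134642-21135598, *Defa22* at chr8:21162277-21163249, *Defa26* at chr8:21618183-21618972, *Defa17* at chr8:21655780-21656735 and *Defa24* at chr8:21734494-21735471. Their coding sequences all have 282 bases, and they are near copies of each other. *Defa21* and *Defa22* are identical at 99.3% of aligned coding bases, *Defa24* and *Defa30* at 98.6% and *Defa17* and *Defa30* at 97.2%, whereas *Defa21* and *Defa26* share 80.7%. The mature peptide is encoded at the end of the coding sequence. The last 60 coding bases, stop codon included, are shown because they separate the 6 genes into a pair and a group of 4 close relatives, and because they show how little sequence tells some reads apart. Capitals mark bases that differ from *Defa24*.
Defa24: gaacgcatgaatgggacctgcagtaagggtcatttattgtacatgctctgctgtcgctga
Defa30: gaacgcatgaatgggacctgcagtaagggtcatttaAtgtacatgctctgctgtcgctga
Defa17: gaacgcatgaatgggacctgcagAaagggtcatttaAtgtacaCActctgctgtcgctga
Defa26: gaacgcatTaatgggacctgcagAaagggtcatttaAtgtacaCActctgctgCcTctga
Defa21: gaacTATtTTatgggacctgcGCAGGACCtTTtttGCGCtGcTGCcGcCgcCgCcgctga
Defa22: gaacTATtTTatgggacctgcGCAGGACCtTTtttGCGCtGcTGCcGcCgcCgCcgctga
*Defa30* differs from *Defa24* at 1 of these bases, *Defa17* at 4, *Defa26* at 7, and *Defa21* and *Defa22* at 27 each. *Defa21* and *Defa22* do not differ from each other in this window. How reads that match more than 1 defensin were counted is not given in the sources used here, so the split of reads between *Defa21* and *Defa22*, and between *Defa24*, *Defa30* and *Defa17*, is uncertain, and the 6 values are not 6 independent measurements.

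The other 4 genes lie on different chromosomes. *Lyz1* is at chr10:117287797-117292868 on the minus strand, *Mmp7* at chr9:7692090-7699585 on the plus strand, *Ang4* at chr14:51763878-51773590 on the minus strand and *Itln1* at chr1:171518122-171535294 on the minus strand. *Lyz1* has a near copy, the macrophage lysozyme *Lyz2*, with 95.1% identity over the coding bases. *Ang4* shares 84.9% with *Ang*. *Mmp7* and *Itln1* were compared with no other gene.

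Since the 10 genes moved together over the mice, their promoters were compared. RefSeq (GRCm38.p6) promoters, 250 bases before the start and 50 after it, were matched by symbol for 7 of the 10 genes, all but *Defa17*, *Defa24* and *Defa26*. The TATA box core TATAAA was in 4 of the 7, *Mmp7*, *Defa21*, *Defa22* and *Defa30*, against 13.6% of 32851 promoters. The motif CTTTGAT, which TCF and LEF factors of the Wnt pathway bind, was in the same 4, against 3.7% of promoters. The E-box CAGCTG was in 1, *Lyz1*, against 16.3%. Both strands were searched and no 2 motifs overlapped. The 150 bases before the start are shown for 3 genes, with TATAAA and CTTTGAT or its reverse complement in capitals.
Defa21, chr8:21025395-21025544, plus strand: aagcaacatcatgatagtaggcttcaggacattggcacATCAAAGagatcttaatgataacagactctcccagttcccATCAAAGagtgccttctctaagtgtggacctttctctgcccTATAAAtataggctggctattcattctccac
Defa30, chr8:21134500-21134649, plus strand: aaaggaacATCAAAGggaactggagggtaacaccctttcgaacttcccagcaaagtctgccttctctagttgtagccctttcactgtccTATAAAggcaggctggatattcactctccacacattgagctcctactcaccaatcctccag
Mmp7, chr9:7691940-7692089, plus strand: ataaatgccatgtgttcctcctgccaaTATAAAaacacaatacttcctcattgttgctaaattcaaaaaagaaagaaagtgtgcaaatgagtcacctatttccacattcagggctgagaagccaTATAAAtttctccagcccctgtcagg
The *Defa22* stretch equals that of *Defa21* at all 150 bases. In *Mmp7* the CTTTGAT match lies just past the start, so it is not in the stretch shown. *Defa21*, *Defa22* and *Defa30* are relatives from the same stretch of chromosome 8, so their promoters are not separate cases. *Mmp7* has another listed start, whose promoter holds the same CTTTGAT match and no TATAAA. These matches are a description of the letters, no enrichment is read from them, and no binding was measured.

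The levels of the 10 genes followed much the same order over the mice. The highest pair of mice was control 2 and TAI 2 for 10 of 10 genes, and the lowest pair was TAI/IVIg 1 and TAI/IVIg 3 for 10 of 10. Within the TAI/IVIg group, mouse 2 was the highest for 10 of 10. Mice TAI 1 and TAI 3 were both above controls 1 and 3 for 9 of 10 genes, with *Mmp7* as the exception.

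*Lyz1* stood at 269, 1108 and 252 FPKM in the control mice, at 476, 1239.8 and 528 FPKM in the TAI mice, and at 83.0, 368 and 33.0 FPKM in the TAI/IVIg mice. Control 2 was 4.25 times the mean of the other two controls. Controls 1 and 3 lay below every TAI mouse, and control 2 lay between TAI 2 and the other two. Every TAI/IVIg mouse was below every TAI mouse, and TAI/IVIg 2 was above controls 1 and 3. The group means were 543 ± 489.6 FPKM in controls, 748 ± 427 FPKM after TAI and 161 ± 181 FPKM after TAI/IVIg (SD, n = 3 each). Between the highest and the lowest mouse *Lyz1* differed 37.6-fold, and the lowest value still rested on 698 reads.

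*Mmp7* encodes the enzyme that activates the defensins. It was at 29.6, 48.1 and 25.5 FPKM in the control mice, at 30.9, 68.8 and 25.8 FPKM in the TAI mice, and at 3.07, 15.5 and 3.13 FPKM in the TAI/IVIg mice. Its control mice were closer together than those of the other genes, and it was the gene for which all 3 TAI/IVIg mice lay below all control mice as well as below all TAI mice. The means were 34.4 ± 12.0, 41.8 ± 23.5 and 7.25 ± 7.18 FPKM (SD, n = 3 each).

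*Ang4* had the widest range of the 4. It was at 8.44, 130.1 and 9.21 FPKM in controls, at 23.8, 83.6 and 33.9 FPKM after TAI, and at 2.98, 14.5 and 2.10 FPKM after TAI/IVIg. Control 2 was 14.7 times the mean of controls 1 and 3, so the control mean of 49.2 ± 70.0 FPKM (SD, n = 3) is set by that mouse. On the plain scale the TAI mean of 47.1 ± 32.0 FPKM (SD, n = 3) was slightly below it, whereas on the log2 scale the TAI mice were higher.

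*Itln1* was at 68.5, 251 and 57.7 FPKM in controls, at 114, 311 and 125 FPKM after TAI, and at 30.5, 91.3 and 22.3 FPKM after TAI/IVIg. It had the narrowest range of the 10 genes, 14.0-fold between the highest and the lowest mouse. Mouse TAI/IVIg 2 was again above controls 1 and 3.

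Among the defensins, *Defa24* had the highest level. It was at 418, 2389.8 and 440.0 FPKM in controls, at 781, 2261 and 1063 FPKM after TAI, and at 121, 574 and 55.1 FPKM after TAI/IVIg. The means were 1083 ± 1132, 1368 ± 786 and 249.9 ± 283 FPKM (SD, n = 3 each). In controls the SD was larger than the mean.

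*Defa22* was at 239.8, 1385 and 219.7 FPKM in controls, at 497, 1259.8 and 766 FPKM after TAI, and at 91.8, 361 and 31.9 FPKM after TAI/IVIg. *Defa21*, its near copy, was at 198, 1188 and 182 FPKM in controls, at 403, 1101 and 680.0 FPKM after TAI, and at 72.6, 297 and 24.4 FPKM after TAI/IVIg. *Defa30* was at 188, 926 and 218 FPKM in controls, at 362, 981 and 458 FPKM after TAI, and at 58.1, 241 and 20.8 FPKM after TAI/IVIg. In these 3 genes mouse TAI/IVIg 3 was lowest and the TAI/IVIg mice did not overlap with the TAI mice.

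The remaining defensins had lower levels. *Defa17* was at 23.3, 63.7 and 26.8 FPKM in controls, at 37.0, 89.4 and 42.9 FPKM after TAI, and at 12.0, 34.8 and 2.55 FPKM after TAI/IVIg. *Defa26* was at 6.81, 30.6 and 3.88 FPKM in controls, at 13.0, 32.5 and 11.6 FPKM after TAI, and at 1.94, 8.23 and 0.80 FPKM after TAI/IVIg. The lowest *Defa26* value rested on 5 reads and the lowest *Defa17* value on 17 reads, so counting error is largest there.

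**Figure D1:**
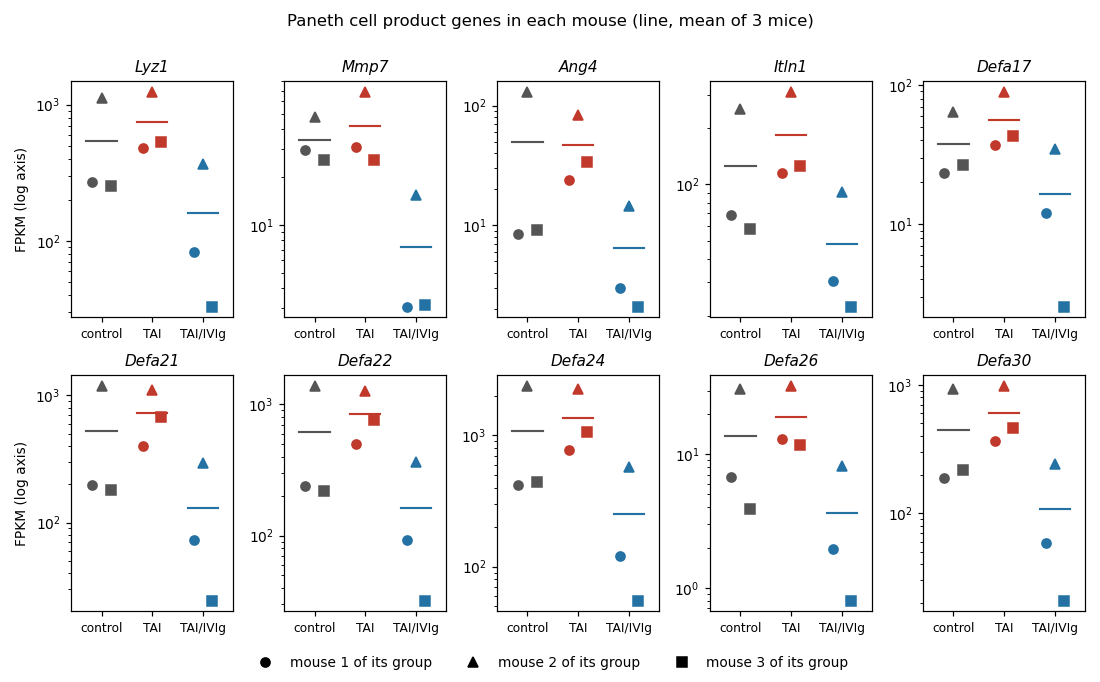
FPKM of the 10 genes in each mouse (log axis, 1 panel per gene with its own range), with the groups along the horizontal axis, the symbol giving the mouse number and the line the mean of 3 mice. In every panel mice control 2 and TAI 2 are highest and mice TAI/IVIg 1 and TAI/IVIg 3 lowest, and only for *Mmp7* do all TAI/IVIg mice lie below all control mice.

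Compared with control mice, the TAI mice had higher log2 means for all 10 genes, within the spread between mice, although the plain mean of *Ang4* was slightly lower. This comparison asks how these transcripts stood after irradiation alone. On log2(FPKM + 1) the differences ran from 0.19 for *Mmp7* (SE 0.57, 95% interval -1.09 to 1.48) to 0.94 for *Defa21* (SE 0.95, -1.22 to 3.10), with 0.68 for *Lyz1* (SE 0.87), 0.72 for *Itln1* (SE 0.68), and 0.84 for *Ang4* (SE 1.03). The median of the 10 was 0.71, beside -0.24 over all genes tested. None of the 10 passed an adjusted p of 0.05 in the limma fit across all genes, where 8.81% of genes were higher and 26.1% lower past it, and 0 of 10 had an unadjusted p under 0.05. With recovered reads and limma voom the count was also 0. The sample titles give a number and no pairing, but same-numbered control and TAI mice deviated together, so the numbers were taken to pair them. With the replicate block built on that assumption 2 of the 10 were higher past the threshold, where 9.12% of genes tested were. The assumption came from these same values, so nothing is read from that count. Without control 2 the differences ran from 0.46 to 2.09, and without TAI 2 from -0.23 for *Mmp7* to 0.58, so these 2 mice set much of their size. With both left out they ran from 0.04 to 1.58.

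Compared with TAI mice, the TAI/IVIg mice were lower for all 10 genes, and the groups did not overlap for any of them. This comparison asks what IVIg added to irradiation. Taken as 2 to the power of the log2 difference, *Defa21* was 8.16-fold lower, *Defa30* 8.05-fold, *Defa24* 7.83-fold, *Ang4* 7.25-fold, *Lyz1* 6.67-fold, *Mmp7* 5.99-fold and *Itln1* 4.06-fold. The log2 differences ran from -3.03 for *Defa21* (SE 0.95, 95% interval -5.19 to -0.87) to -2.02 for *Itln1* (SE 0.68, -3.56 to -0.48), and *Mmp7* had the smallest error, -2.58 (SE 0.57, -3.87 to -1.30). Their median was -2.80, beside -0.13 over all genes tested. None of the 10 passed the adjusted threshold, and neither did any other gene tested (0.0% of 13056, smallest adjusted p 0.353 in limma, with 0 genes by voom as well). All 10 had an unadjusted p under 0.05, which 11.2% of genes tested had in the lower direction, and all 10 were without overlap, as were 16.1% of genes in that direction. These are counts on the values that chose the genes, and nothing is read from them. With control 2 and TAI 2 left out the differences ran from -2.67 to -1.56, without TAI/IVIg 2 from -3.96 to -2.61, and without TAI/IVIg 3 from -2.41 to -1.30.

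Compared with control mice, the TAI/IVIg mice were lower on average for all 10 genes, with overlap for all but *Mmp7*. Mouse TAI/IVIg 2 lay above controls 1 and 3 for the other 9, while mice TAI/IVIg 1 and 3 lay below every control for 10 of 10. The log2 differences ran from -2.39 for *Mmp7* (SE 0.57, 95% interval -3.67 to -1.10) to -1.31 for *Itln1* (SE 0.68, -2.85 to 0.23), with -2.06 for *Lyz1* (SE 0.87), -2.01 for *Ang4* (SE 1.03) and -2.31 for *Defa30* (SE 0.89). The median was -2.04, beside -0.39 over all genes tested. Of the 10, 1 was lower past the adjusted threshold, where 9.06% of all genes were higher and 37.4% lower past it, and 44.3% of genes had TAI/IVIg mice all below the controls. Without TAI/IVIg 2 the count was 9 of 10, and 38.6% of genes tested were lower past the threshold. As the members were chosen on these values, nothing is read from either count. Without control 2 the differences ran from -2.13 to -0.65. In whole tissue, fewer Paneth cells and less of each transcript per Paneth cell cannot be told apart. By lysozyme staining on day 3, the study itself reported more Paneth cells in TAI/IVIg mice than in TAI mice. Staining shows protein in sections, and how it relates to the lower RNA levels here was not tested.

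**Figure D2:**
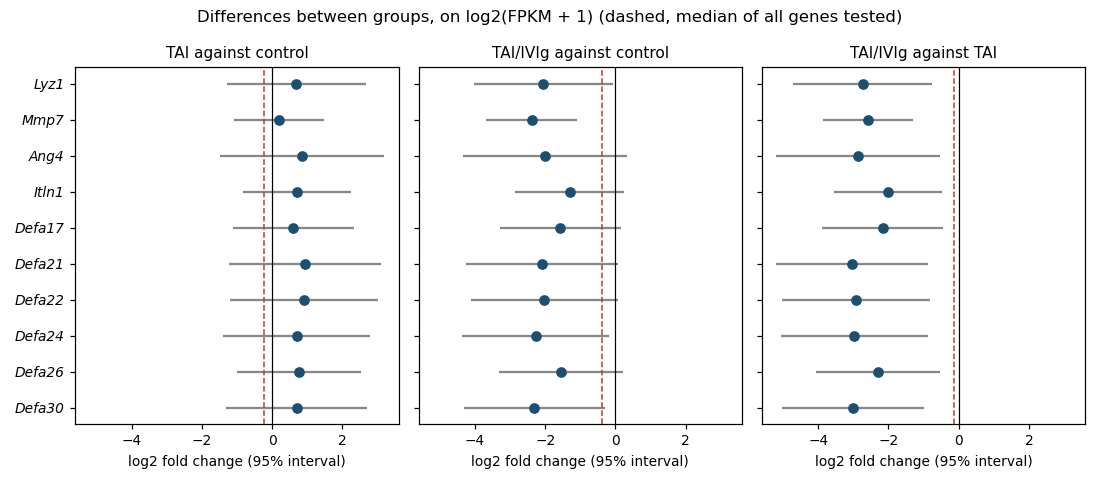
Log2 fold change of each of the 10 genes in the 3 comparisons (points, with 95% intervals as lines, on log2(FPKM + 1) from limma with 3 mice per group), with the median of all genes tested as a dashed line. All 10 intervals include 0 in TAI against control and lie below 0 in TAI/IVIg against TAI. The genes were chosen by these values, so the intervals are a description and no test, and 0 of the 10 passed the adjusted threshold in either comparison.

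The 3 comparisons share mice, so the same control or TAI mice enter 2 of them and their values are not independent. In each group the order of levels between genes was nearly the same as well. *Defa24* had the highest mean in all 3 groups, and *Defa26* the lowest. For all 10 genes the TAI and control means, neighbours in that order, differed by less than the SD within either group.

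Each gene was next set against *Lyz1* in the same mouse, which leaves out whatever all of them shared. *Defa30* kept the most constant ratio, from -0.66 to -0.21 in log2 units over the 9 mice. *Defa24* ran from 0.54 to 1.11. The ratio of *Itln1* lay between -2.14 and -1.97 in the 6 control and TAI mice and at -1.45, -2.01 and -0.56 in TAI/IVIg mice 1, 2 and 3, so relative to *Lyz1* it was highest in the pair of mice with the lowest Paneth signal. *Mmp7* was at -3.18 and -3.31 in controls 1 and 3, at -4.53 in control 2, at -4.35 to -3.95 in the TAI mice and at -4.76, -4.57 and -3.40 in the TAI/IVIg mice. The high *Lyz1* level of control 2 was thus not matched by *Mmp7*. *Ang4* had the opposite pattern, from -4.99 and -4.78 in controls 1 and 3 to -3.09 in control 2. *Defa17* was relatively highest in TAI/IVIg 1, at -2.79, and lowest in control 2, at -4.12.

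**Figure D3:**
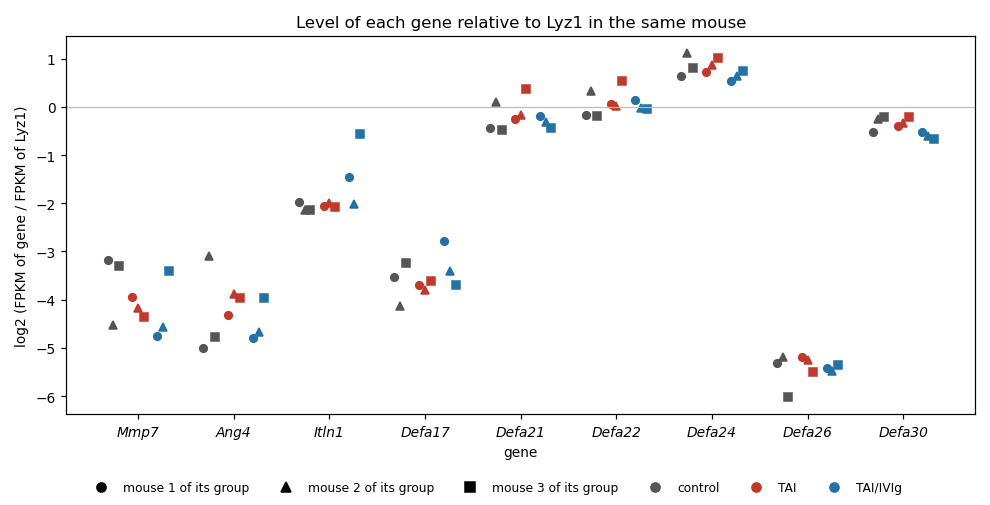
Log2 of the FPKM of each of 9 genes over the FPKM of *Lyz1* in the same mouse, with colour for the group and symbol for the mouse number. *Defa30* and *Defa24* keep a near constant ratio, while *Itln1* stands at -0.56 in mouse TAI/IVIg 3 against -2.14 to -1.97 in the control and TAI mice.

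Across the 9 mice, Pearson r of log2(FPKM + 1) between pairs of the 10 genes ran from 0.867 to 1.0 over 45 pairs, with a median of 0.974. *Mmp7* was the least alike, at 0.867 to 0.938. These values describe mice that fall into 3 groups, with a few mice far from the rest, and defensins whose sequences are near copies. *Lyz2*, the near copy of *Lyz1* that macrophages make, did not share the pattern. It was at 69.0, 44.4 and 214 FPKM in controls, at 33.3, 56.4 and 192 FPKM after TAI, and at 29.6, 195 and 18.7 FPKM after TAI/IVIg, and its r with the 10 genes was 0.215 to 0.46. The highest mice for *Lyz2* were control 3, TAI/IVIg 2 and TAI 3, and none of them was the highest or second highest for *Lyz1*. *Ang*, the relative of *Ang4*, stayed between 8.79 and 21.1 FPKM, and *Ang2* was at 0.06 FPKM in 1 mouse and listed at 0 in the others.

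The genes most like the 10 were looked up by Pearson r over the 9 mice with the mean standardized profile of the members. For the 4 non-defensin genes the 5 nearest were *Defa29* (0.992), *Defa23* (0.989), *Gm15292* (0.988), *Defa35* (0.988) and *Defa20* (0.983). For the 6 defensins they were *Defa23* (0.997), *Defa20* (0.996), *Defa35* (0.995), *Defa29* (0.995) and *Defa3* (0.991). All of these belong to the list of other alpha-defensins. *Defa20*, for example, was at 61.9, 493 and 63.5 FPKM in controls, at 150.1, 376 and 214 FPKM after TAI, and at 23.2, 87.7 and 7.01 FPKM after TAI/IVIg.

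The rest of the alpha-defensin family, 32 genes and pseudogenes of which 22 were tested, lay lower in TAI/IVIg mice as well. Their summed level was 354, 2579 and 406 FPKM in controls, 827, 2249 and 1070.0 FPKM after TAI, and 132, 662 and 57.2 FPKM after TAI/IVIg. Against TAI mice, all 22 had in TAI/IVIg mice a negative log2 difference, with a median of -2.41 and a range of -3.29 to -0.61. Of these, 15 were without overlap and 20 had an unadjusted p under 0.05, beside 16.1% and 11.2% of all genes in that direction. The adjusted threshold was passed by 0. *Gm7861*, *Defa-ps18* and *Defa-ps1*, with at most 32, 16 and 8 reads in any mouse, were below 1 FPKM in every TAI/IVIg mouse. They passed the filter only through control and TAI mice, so a lower TAI/IVIg level was nearly built in for them. In TAI/IVIg against control 1 of the 22 fell, the defensin-related gene *Gm15292* (log2 fold change -1.99, SE 0.69, adjusted p = 0.0417), and the median was -1.68. Its call was lost in 10 of the 18 alternatives, among them equal library medians and each of controls 2 and 3, TAI 1 and 3 and TAI/IVIg 1 and 3 left out, and without TAI/IVIg 2 the count was 13 of 22, where 38.6% of all genes tested were lower. In TAI against control 0 of 22 passed, 20 of 22 were positive and the median was 0.75. With the replicate block 5 of them were higher past the threshold, *Defa31*, *Defa5*, *Defa-ps7*, *AY761184* and *Defa37*, where 9.12% of all genes were, and without control 2 it was 4, where 6.68% were. The pairing behind the block came from these same mice, so nothing is read from its count. How reads that match several alpha-defensins were divided is not given in the sources used here, so these values are not taken as separate support for the 6 above.

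Other secreted products of Paneth cells and their neighbours did not all follow. Of 19 listed genes 16 were tested, and in TAI against control 4 rose and 0 fell, with a median of 0.41. *Rnase1*, a secreted ribonuclease, rose by 1.80 (SE 0.28, adjusted p = 0.00237), *Pnliprp2*, a lipase, by 1.61 (SE 0.30, adjusted p = 0.00506), *Reg3a*, an antibacterial lectin, by 1.34 (SE 0.42, adjusted p = 0.0354) and *Guca2b*, uroguanylin, by 0.65 (SE 0.21, adjusted p = 0.0381) on the log2 scale. The same 4 genes were also higher in TAI/IVIg against control, where *Guca2a*, guanylin, fell by 0.68 on the log2 scale (SE 0.18, adjusted p = 0.0148). *Reg3a* was at 20.4, 45.3 and 18.1 FPKM in controls, at 69.6, 89.2 and 47.1 FPKM after TAI, and at 38.4, 60.8 and 94.8 FPKM after TAI/IVIg. Mouse TAI/IVIg 3, lowest for 9 of the 10 Paneth genes, was thus the highest mouse for *Reg3a*.

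*Mptx2*, a pentraxin of Paneth cells, had the pattern of the 10. It was at 7.90, 114 and 5.89 FPKM in controls, at 19.7, 52.3 and 23.1 FPKM after TAI, and at 2.52, 16.2 and 1.43 FPKM after TAI/IVIg, and in TAI/IVIg against TAI its log2 difference was -2.50 (SE 1.08, adjusted p = 0.382). *Pla2g2a*, a secreted phospholipase of Paneth granules, was at 6.63, 16.1 and 7.22 FPKM in controls, at 21.7, 44.1 and 17.6 FPKM after TAI, and at 3.83, 11.7 and 1.41 FPKM after TAI/IVIg. Its TAI mice were all above the controls (log2 difference 1.38, SE 0.595, adjusted p = 0.1) and its TAI/IVIg mice all below the TAI mice (-2.33, SE 0.595, adjusted p = 0.353), neither past the threshold.

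Of the ligands that Paneth cells and their neighbours offer to stem cells, 5 of 8 were tested. In TAI against control 3 rose, the Notch ligands *Dll1* (log2 fold change 0.83, SE 0.18, adjusted p = 0.0096) and *Dll4* (0.85, SE 0.23, adjusted p = 0.0215) and the EGF receptor ligand *Tgfa* (0.48, SE 0.14, adjusted p = 0.025), and 1 fell, the EGF receptor ligand *Areg* (-0.95, SE 0.29, adjusted p = 0.0342). In TAI/IVIg against control the same 3 were higher and *Areg* (-2.13, SE 0.29, adjusted p = 0.000973) and *Ereg* (-1.18, SE 0.26, adjusted p = 0.00674) fell. *Wnt3*, the Wnt ligand of Paneth cells, was below the filter, at 0.04 to 0.96 FPKM, and its highest values were those of control 2 and TAI 2.

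Regulators of secretory and Paneth fate were counted next. Of 15 tested, 3 rose and 3 fell in TAI against control (median -0.43), and 1 rose and 9 fell in TAI/IVIg against control (median -0.70), where 37.4% of all genes fell. The fallers in TAI/IVIg included *Atoh1*, the transcription factor of all secretory cells (-1.16, SE 0.19, adjusted p = 0.00208), *Spdef*, a factor of goblet and Paneth maturation (-1.07, SE 0.20, adjusted p = 0.00327), and *Fzd5*, the Wnt receptor of Paneth cells (-0.86, SE 0.13, adjusted p = 0.00142). *Tcf7l2*, the TCF factor of the intestinal epithelium, rose in both comparisons (0.57 and 0.78, SE 0.17 in both), and *Sox9*, needed for Paneth cells to form, rose after TAI (1.08, SE 0.37, adjusted p = 0.0463). After scaling the libraries to equal medians, 3 rose and 1 fell in TAI against control and 2 rose and 1 fell in TAI/IVIg against control, and *Spdef* and *Fzd5* were not past the threshold in the latter.

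Genes for granule formation, autophagy and ion handling gave 1 riser and 2 fallers of 17 tested in TAI against control, and 1 and 7 in TAI/IVIg against control. *Slc30a2*, a zinc transporter that loads Paneth granules, rose in both comparisons with control. It was at 14.4, 12.4 and 13.2 FPKM in controls, at 39.3, 41.9 and 37.4 FPKM after TAI, and at 47.9, 46.6 and 51.0 FPKM after TAI/IVIg, a rise of 1.50 (SE 0.11, adjusted p = 0.000207) and of 1.79 (SE 0.11, adjusted p = 5.2e-05) on the log2 scale. Neither irradiated group overlapped with the controls. *Kcnn4*, a potassium channel of Paneth granule release, fell by 1.32 (SE 0.33, adjusted p = 0.0151) and by 2.05 (SE 0.33, adjusted p = 0.0018). With library medians set equal the list gave 1 and 1, and 2 and 2. Over these 4 lists of 53 tested genes, 11 rose (20.8%, beside 8.81% of all genes) and 6 fell (11.3%, beside 26.1%) in TAI against control. Among the same genes in TAI/IVIg against control 9 rose (17.0%, beside 9.06%) and 19 fell (35.8%, beside 37.4%), so the share of fallers was near that of all genes. At equal library medians 13 rose and 2 fell, and 11 rose and 4 fell. The 17 calls in TAI against control became 7 without control 2, 8 without control 3, 6 without TAI 1, 11 without TAI 2 and 10 without TAI 3, and the 28 in TAI/IVIg against control became 18 without control 3 and 17 without TAI/IVIg 3. In both comparisons *Slc30a2* and *Pnliprp2* were past the threshold in all 18 alternatives and *Rnase1* in 17. A gene that a stricter filter leaves out is counted as a lost call. In TAI against control the calls of *Sox9* and *Areg* were lost in 9 of the 18, those of *Guca2b* and *Tcf7l2* in 8, those of *Reg3a*, *Kcnn4* and *Tgfa* in 6 and that of *Dll4* in 5, and *Guca2b* lost its call with the replicate block. In TAI/IVIg against control *Tgfa* was lost in 9, *Reg3a* in 7, *Dll4* in 6, *Guca2a* in 4, *Ereg* in 1 (equal library medians) and *Areg* in 0. No gene of them passed in TAI/IVIg against TAI, where 12 were lower and 1 higher at an unadjusted p under 0.05. Of all genes tested 11.2% were lower at that p.

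**Figure D4:**
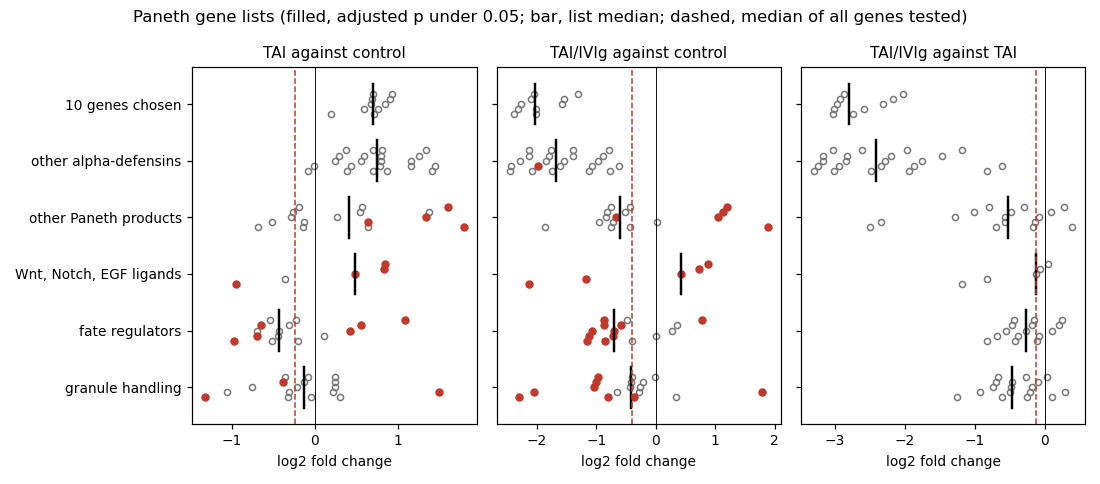
Log2 fold change of each tested gene in 6 lists (points) in the 3 comparisons, filled where the adjusted p was under 0.05 (not marked for the 10 genes), with the median of each list as a bar and that of all genes tested as a dashed line. In TAI/IVIg against TAI the 10 genes and the other alpha-defensins lie furthest to the left, with medians of -2.80 and -2.41, and no point is filled.

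Matrilysin has inhibitors and relatives, which were counted too. Of its inhibitors 4 were tested, and 0 passed in any of the 3 comparisons. In TAI/IVIg against TAI 4 of 4 were lower at an unadjusted p under 0.05, as were 11.2% of all genes tested. Of 9 other matrix metalloproteinases tested, *Mmp15* (0.89, SE 0.13, adjusted p = 0.00213) and *Mmp9*, which neutrophils also make (1.75, SE 0.28, adjusted p = 0.0026) rose in TAI against control and none fell. The same 2 were higher in TAI/IVIg against control, where *Mmp19* fell (-0.50, SE 0.15, adjusted p = 0.0216). In TAI/IVIg against control *Mmp7* thus had the opposite sign to *Mmp9* and *Mmp15*, and the same sign as 5 of the 9. In TAI/IVIg against TAI 8 of the 9 had a negative log2 difference, as *Mmp7* had.

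Markers of other cells moved with some of the groups. The goblet list was at 2314 to 3104 FPKM summed in controls, 3579 to 4672 FPKM after TAI and 2046 to 3502 FPKM after TAI/IVIg, with *Muc2*, the main gut mucin, at 81.0 ± 10.9, 148 ± 22.9 and 71.6 ± 29.4 FPKM and *Tff3*, a goblet peptide, at 645 ± 107, 1003 ± 142 and 620.1 ± 221 FPKM (SD, n = 3 each). Other goblet genes differed from these. *Agr2*, a disulfide isomerase that goblet cells need to make mucin, fell after TAI, from 287 ± 55.0 to 88.2 ± 33.9 FPKM (log2 fold change -1.74, adjusted p = 0.00353), while *Fcgbp*, *Zg16* and *Muc2* rose. Of the 8 tested, 4 fell in TAI/IVIg against control, *Agr2*, *Spink4*, *Clca1* and *Tpsg1*, where 37.4% of all genes fell. With equal library medians 1 fell, *Agr2*, and 1 rose. All 8 goblet genes tested were lower in TAI/IVIg against TAI, with a median of -0.98, and 0 passed. There 8 of 8 had an unadjusted limma p under 0.05 and 4 were without overlap, beside 11.2% and 16.1% of all genes in that direction. The lower levels against TAI were thus not confined to Paneth genes. The enterocyte list was at 13010 to 20851 FPKM in controls and at 29763 to 50296 FPKM in the irradiated mice, with 6 of 8 genes higher past the threshold in each comparison with control. *Olfm4*, a stem cell gene, was at 8.39, 61.4 and 12.8 FPKM in controls and at or below 2.80 FPKM in the irradiated mice, so control 2, high for the Paneth genes, was high for it as well. *Lgr5*, another stem cell marker, was at 0.37 to 0.98 FPKM in all mice and was not tested. Of the 8 genes of the stem cell list 5 were tested, and they did not share a direction. *Olfm4* fell in both comparisons with control and *Tnfrsf19* in TAI/IVIg alone. *Axin2* rose in both (log2 fold change 0.81, limma adjusted p = 0.0108, and 1.02, limma adjusted p = 0.00282). The macrophage list was at 83.2 to 361 FPKM and the neutrophil list at 4.10 to 17.7 FPKM over all mice, with *Cd68* at 2.56 to 10.6, *Adgre1* at 0.83 to 3.58, *S100a8* at 0.08 to 1.33 and *S100a9* at 0.22 to 4.94 FPKM. The ileal list was at 7469 to 8278 FPKM in controls, 1469 to 3618 FPKM after TAI and 244 to 1410.2 FPKM after TAI/IVIg. *Fabp6* made up most of this sum in every mouse, so the sum mainly repeats that gene. The part of the goblet, enterocyte, stem cell and ileal signals in the Paneth values was not tested. The 2 mice with the lowest ileal sums, TAI/IVIg 2 and 3, were the highest and the lowest of their group for 9 of the 10 Paneth genes. Both lie in the same group, so the part of position in the differences between groups was not tested by them.

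**Figure D5:**
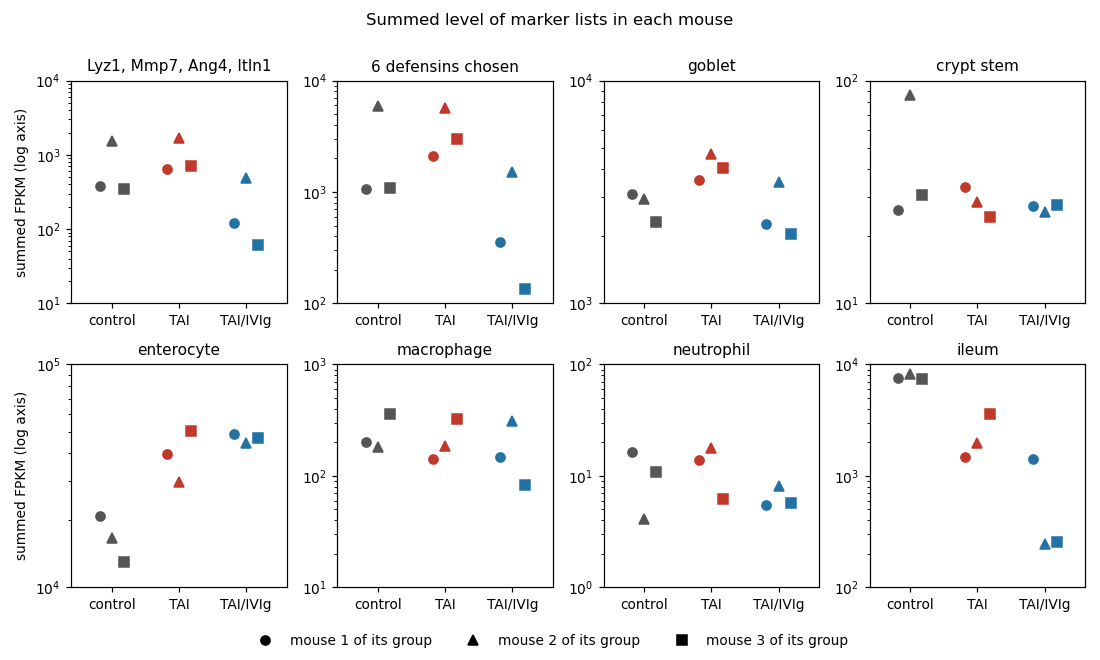
Summed FPKM of the 4 non-defensin genes, the 6 defensins and 6 marker lists in each mouse (log axis, each panel with its own range). The Paneth sums of control 2 and TAI 2 stand apart from those of their groups, whereas the ileal sums of the controls, 7469 to 8278 FPKM, lie above those of all irradiated mice.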

How the data were processed

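RNA from the jejunum of 9 mice, 3 each in the control, TAI and TAI/IVIg groups, was sequenced by a company. The authors deposited gene-level FPKM values, 1 column per mouse without pooling, and 0 columns were left out. The submitters' processing notes name FastQC, Trimmomatic, STAR, featureCounts and DESeq2 with the mm10 build, without versions. The multi-mapping and strand settings are not given in the sources used here. Groups and mouse numbers came from the sample titles.

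The FPKM values were turned into whole reads with the exon lengths of GENCODE M21 (GRCm38), within 0.02 of a whole number for 30626 genes (96.7%), and these summed to 96.13% to 97.06% of the library totals. They were used for depth and for 1 alternative fit. Symbols were paired for 31146 of the 31685 identifiers.

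Group means of log2(FPKM + 1) over all 9 mice were estimated with limma (version 3.58.1, R 4.3.3) and its trended empirical Bayes step. Genes entered when 3 or more mice had an FPKM of 1 or more. Benjamini-Hochberg adjustment ran over all genes tested within each comparison, with a threshold of 0.05, and intervals cover 95%. Fold changes on this scale understate the change of genes with low FPKM. The steps were tested on simulated reads. Same-numbered control and TAI mice deviated from their group means together (r = 0.271, 0.241 and 0.308), so the numbers were taken to pair these 2 groups, and a replicate block was run as an alternative. Coding sequences came from GENCODE and promoters from RefSeq.

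The 10 genes, the gene lists and the tests were chosen with earlier results of these data known. Named were all 10 genes, the list genes past the threshold (at most 5 per list and comparison by the smallest p), the near copies *Lyz2* and the *Ang* genes, the first 2 markers of each cell type list, and the 5 genes most alike. *Mptx2*, *Pla2g2a*, *Wnt3*, *Fgf15*, the other goblet genes and the genes named for a replicate block or a left-out mouse were named after their values were seen. The alternatives were no filter, a filter on the mean FPKM (5 or more), a pseudocount of 0.1, equal library medians, no trend, the 6 mice compared alone, each mouse left out and a replicate block, with limma voom on the recovered reads and the omission of control 2 and TAI 2 together added after seeing the data.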

Additional observations from a re-analysis of the deposited data

How the results depend on the processing

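Each group had 3 mice, and the lowest value of a member rested on 5 reads. How much of the spread was counting error was not tested. The members' log2 fold changes were refit 180 times in each comparison. The sign changed in 1 for TAI against control (*Mmp7*, -0.23 without TAI 2) and in 0 for both others. Many refits could not move the value. Other filters, no trend, the replicate block and only the compared mice left the group means as they were. So did leaving out a mouse of the group not compared. Every value stayed within 1 SD between mice of the reported one. With 3 mice per group, leaving out 1 can hardly shift a mean by more than that, so this limit was no test of stability. With library medians set equal the median of all genes shifted from -0.24 to 0.05, from -0.39 to 0.10 and from -0.13 to 0.08, and the members' medians from 0.71 to 0.99, from -2.04 to -1.55 and from -2.80 to -2.60, in TAI against control, TAI/IVIg against control and TAI/IVIg against TAI.

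For all genes, the counts past the threshold were 1150 higher and 3411 lower in TAI against control and 1183 and 4880 in TAI/IVIg against control, and with equal medians 2159 and 1823, and 2880 and 1894. With control 2 and TAI 2 left out they were 469 and 760, and 813 and 2669. In TAI/IVIg against TAI 0 genes passed, with 4 lower without the filter and 3 lower with the replicate block. Voom on the recovered reads called 1128 and 3262, 1159 and 4853, and 0.

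The mouse numbers were taken to pair control and TAI mice from their deviations in these same data, as no label gives a pairing. With the replicate block 2 of the 10 members, 5 of the other alpha-defensins and 23 of the other Paneth genes (17 without it) passed in TAI against control. TAI/IVIg mice share only a number with the others, their deviations correlating at -0.296 to 0.201, and 2 and 3 of 6 mice correlated best with their own number, against 6 of 6 for control and TAI. There the replicate block gave 10 members and 19 other alpha-defensins in TAI/IVIg against control (38.2% of all genes were lower) and 1 member in TAI/IVIg against TAI (0.023%). It changed no other list's count by over 1.5 times. As its pairing came from these same data, nothing is read from the counts with the block.

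Leaving out 1 mouse gave 0 members in TAI against control, 1 to 9 in TAI/IVIg against control and 0 in TAI/IVIg against TAI. The other alpha-defensins ranged from 0 to 4, from 0 to 13 and at 0, and the other Paneth genes from 6 to 18, from 17 to 28 and at 0. Without control 2 and TAI 2 together the other alpha-defensins gave 0 in TAI/IVIg against control, and the other Paneth genes 4 in TAI against control and 16 in TAI/IVIg against control. In TAI/IVIg against control the other alpha-defensins gave 2 with a pseudocount of 0.1 and with voom, and 0 without the filter, with equal medians and with the 6 mice compared. The other Paneth genes gave 8 in TAI against control without the filter, and in TAI/IVIg against control 18 without it, 14 at a mean FPKM of at least 5 and 15 with equal medians. The cause of these changes was not tested.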

Other observations

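Outside the alpha-defensin family, the gene whose levels were most like those of the 4 non-defensin members over the 9 mice was *Mmrn1*, an extracellular matrix glycoprotein named after its values were seen, with r = 0.978 for the 4 genes and 0.97 for the 6 defensins. It was at 1.63, 2.90 and 1.27 FPKM in controls, at 2.33, 3.14 and 1.90 FPKM after TAI, and at 0.88, 1.42 and 0.52 FPKM after TAI/IVIg. At least 0.9 was reached by 78 genes for the 4 non-defensin members and by 72 for the defensins.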
